A study of Danio rerio with 6 samples.

Results

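Intraflagellar transport (IFT) and BBSome genes were examined in the heads of wt and *tulp1*-dKO zebrafish larvae at 4 dpf (days post-fertilization). The genes were taken by name, from 36 names that cover the IFT-A and IFT-B complexes, the motors that move them, and the BBSome with its assembly factors and its regulator *lztfl1*. Of these names, 34 were found among the 32520 listed genes, 4 of IFT-A, 14 of IFT-B, 5 of the motors and 11 of the BBSome group, while *ift122* and *ift43* were not analysed here. *dync2h1* is listed in capital letters and was matched without regard to case. RNA from dissected heads was sequenced from 3 wt samples and 3 *tulp1*-dKO samples, all of strain AB. The *tulp1*-dKO zebrafish carry CRISPR/Cas9 frameshift mutations in both *tulp1a* and *tulp1b*, the zebrafish homologs of *TULP1*, and descend from a cross of 1 *tulp1a* line and 1 *tulp1b* line. The number of larvae behind each RNA-seq sample is not given in the sources used here, and nothing in the labels ties a replicate number to a clutch or a day, so p-values measure only the spread between these samples, which may be technical.

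A cilium is built and maintained by trains of protein that travel along its microtubules. IFT-B trains, pulled by kinesin-2, carry cargo such as tubulin toward the tip, and IFT-A with dynein-2 drives the return to the base. The BBSome is a coat-like complex that rides on these trains and takes membrane proteins out of the cilium. In humans, loss of its subunits or of its chaperonin-like assembly factors causes Bardet-Biedl syndrome, in which the retina degenerates. The outer segment of rods and cones is a modified cilium, and opsins reach it through the connecting cilium at its base. In mammalian cells, the tubby-family protein TULP3, a relative of TULP1, binds IFT-A. Most IFT and BBSome genes are used by every ciliated cell, so a head holds their RNA from many tissues beside the retina.

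The values are TPM, a level per gene that accounts for gene length and is scaled to a common total. Over the listed genes the samples summed to nearly the same total, 945666 to 948860 TPM. TPM keeps no read depth, so the errors given here come from the spread of the samples. SD is how far the 3 samples of a group lay apart. SE and p are those of limma, which draws the variance of each gene toward that of genes at a similar level. The groups were compared with limma on log2(TPM + 0.1), taking in the 22824 genes whose mean reached 0.5 TPM, and p was adjusted over all of these by the Benjamini-Hochberg method. The 0.1 added to each value understates the fold change of genes with few TPM. A gene was called when its adjusted p did not exceed 0.05 and its log2 fold change reached 1 or −1. Between 25096 and 25304 genes were above 0 in each sample, and Pearson's r across genes, which are not independent, was 0.932 to 0.947 within groups and 0.914 to 0.927 between them. The targeted gene *tulp1b* was at 13.1, 11.9 and 9.77 TPM in the wt samples against 2.71, 2.01 and 2.37 TPM among the *tulp1*-dKO samples, and *tulp1a* at 25.3, 25.0 and 23.7 TPM against 16, 14.4 and 15.8 TPM. Neural, lens, cartilage, skin and pigment markers of the head were present in every sample, with 4380 to 4556 TPM summed over 10 genes in the wt samples and 4488 to 5271 TPM among the *tulp1*-dKO samples. The heads also held pancreas and gut RNA in unequal amounts, at 1224 to 1892 TPM summed over 15 genes in the wt samples and 994, 2646 and 4619 TPM among the *tulp1*-dKO samples.

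In wt heads, the 34 genes spanned a wide range of levels, from 0.393 TPM for *kif17* to 98.4 TPM for *lztfl1*, with a median of 11.3 TPM. A total of 25 of them lay between 5 and 35 TPM. The wt samples were close to each other, with a coefficient of variation (SD as a percentage of the mean) under 20% in 31 genes. The subunits of 1 complex were not equally abundant. *kif3a*, the motor subunit common to the heterotrimeric kinesin-2 forms, stood at 56.6 ± 0.689 TPM (mean ± SD, n = 3 in this and all later values), 7.54 times the level of its partner *kif3b*. That ratio leaves out the other partners of *kif3a*, *kif3ca* and *kif3cb*, which are outside the 34. They were at 19.8 ± 1.55 and 27.8 ± 1.29 TPM, so it does not show an excess of *kif3a* over all its partners. *ift74*, the most abundant IFT-B gene, was 7.17 times as abundant as *ift81*, although their proteins form a tubulin-binding pair. The chaperonin-like genes *mkks*, *bbs10* and *bbs12* were the least abundant of the BBSome group, at 2.86, 2.61 and 2.89 TPM, and their order does not stand out beyond their spread.

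**Figure D1:**
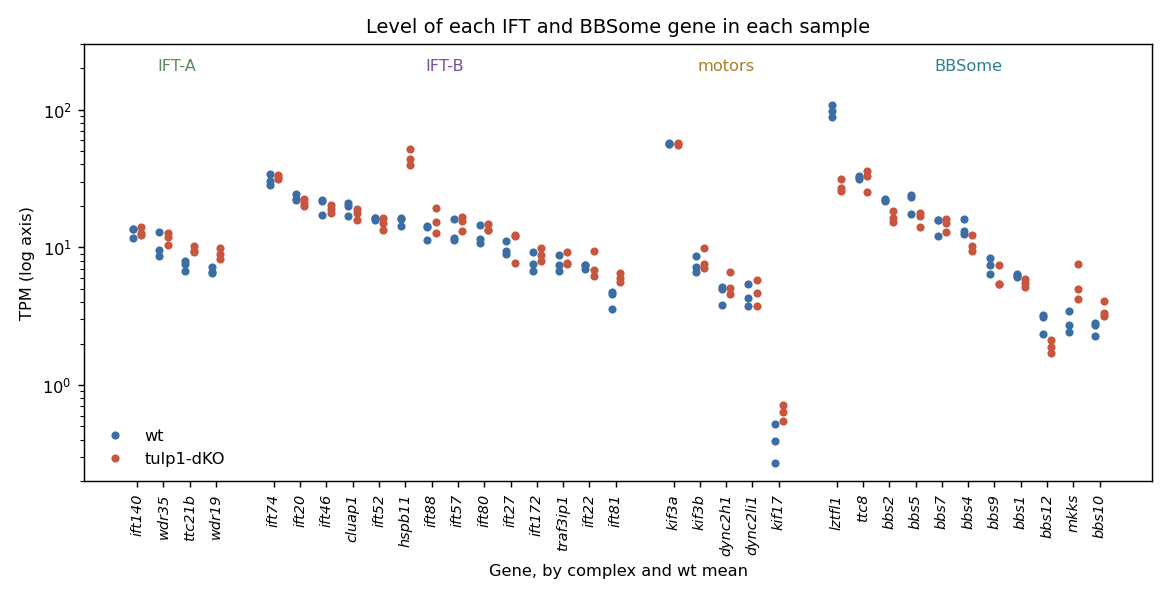
Level of each of the 34 genes in TPM on a log axis, ordered by complex and by wt mean, with 1 point per sample (3 wt in blue, 3 *tulp1*-dKO in red). Only *lztfl1* and the *hspb11* entry show groups set far apart, *lztfl1* from 98.4 to 28.0 TPM and the *hspb11* entry from 15.6 to 45.0 TPM.

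All 34 genes passed the filter on low values, *kif17* only through its *tulp1*-dKO samples. *lztfl1* fell and the entry named *hspb11* rose, and the other 32 genes did not pass the test. Higher calls were 1 of 34 genes, against a background of 0.364% of all genes tested, and lower calls were 1 of 34, against 0.96%. The background rests on 302 called genes, a number that dropped to 104 without wt sample 1, 137 without wt sample 2 and 136 without *tulp1*-dKO sample 2. At an adjusted p of at most 0.05 with no minimum fold change, the counts were again 1 higher and 1 lower, against 0.67% and 1.22% of all genes tested. At an unadjusted p of at most 0.05, 5 genes were higher (14.7%) and 5 lower (14.7%), against 10.1% and 6.97%. These counts include the *hspb11* entry, described below as a different gene from the IFT-B subunit. Without it, 0 of 33 genes were called higher, and 4 (12.1%) were higher at an unadjusted p of at most 0.05. Group overlap was counted in a different set of 33 genes, without *kif17* but with the *hspb11* entry. In 6 of them (18.2%) the lowest *tulp1*-dKO value exceeded the highest wt value, against 14.6% of all genes tested. These 6 were *wdr19*, *ttc21b*, *ift81*, *mkks*, *bbs10* and the *hspb11* entry, so this share too counts the different gene. In 5 (15.2%) the highest *tulp1*-dKO value lay under the lowest wt value, against 8.86%. The median log2 fold change was 0.07 in either set of 33 genes, beside 0.05 over all genes tested, and 29 of the 34 were within 0.5 of 0.

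**Figure D2:**
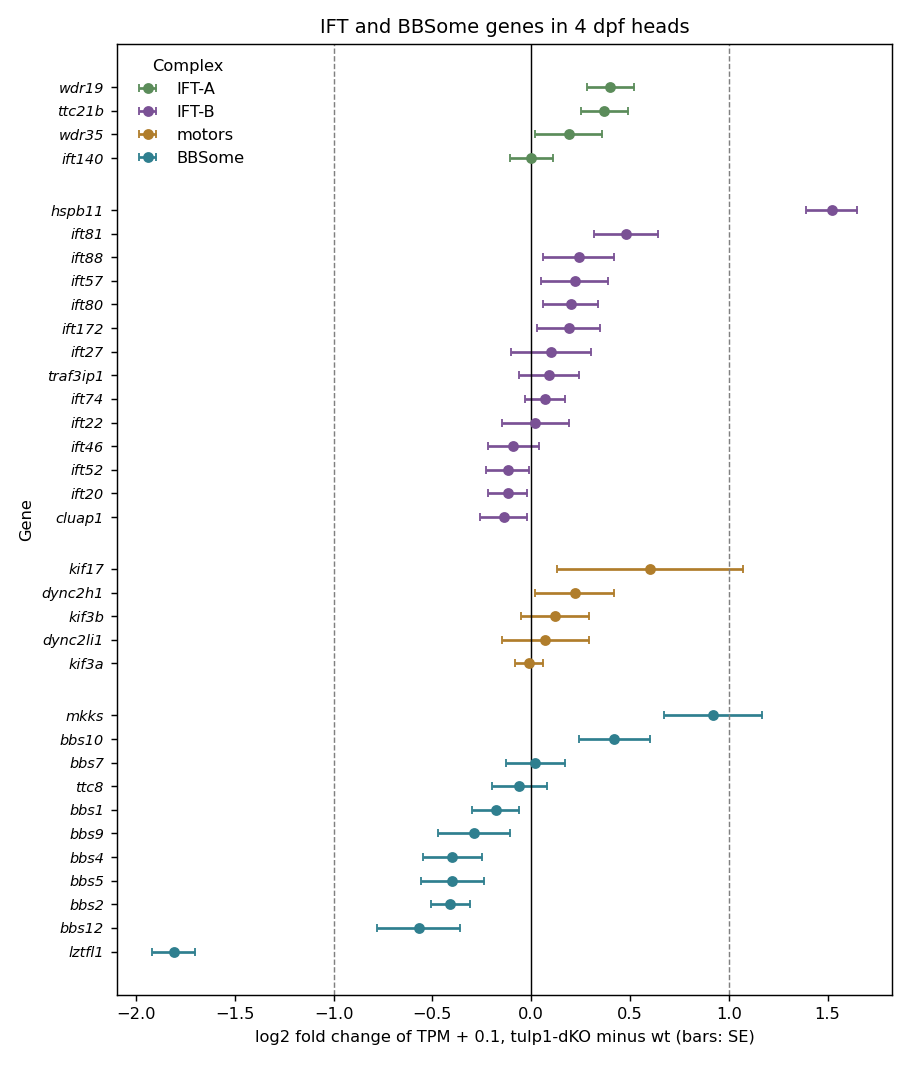
Fitted log2 fold change of TPM + 0.1, *tulp1*-dKO minus wt, with its SE as bars, for each of the 34 genes by complex. Dashed lines mark a log2 fold change of 1 in each direction, which only *lztfl1* at −1.81 and the *hspb11* entry at 1.52 pass, while 29 genes lie within 0.5 of 0.

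The largest difference among the 34 genes was in *lztfl1*, a leucine zipper protein that in mammalian cells holds the BBSome back from entering the cilium and that is itself a Bardet-Biedl syndrome gene in humans. *lztfl1* (ENSDARG00000105010) was at 98.4, 89.1 and 108 TPM in the wt samples against 25.8, 31.3 and 27.1 TPM among the *tulp1*-dKO samples. The lowest wt sample was far above the highest *tulp1*-dKO sample, and the samples of each group lay close together. Its mean fell from 98.4 ± 9.22 TPM to 28.0 ± 2.90 TPM, 28.5% of wt, with a log2 fold change of −1.81 (SE 0.11, limma adjusted p = 0.00107). In wt heads *lztfl1* was the most abundant of the 34 genes, 1.74 times the level of *kif3a*, which came next, and it lay at the 94.8th percentile of the genes tested. In *tulp1*-dKO heads it ranked 5, below *kif3a*, the *hspb11* entry, *ift74* and *ttc8*, and its samples overlapped those of *ttc8*. In the RefSeq gene table (assembly GRCz12tu, not the build of the data) *lztfl1* is on chromosome 24 and *tulp1b* on chromosome 6, while *tulp1a* had no match. *ccr9b* and *pdcd6* were taken as neighbours of *lztfl1* there, with no distances given. The part of chromosome position in the *lztfl1* difference was not tested. *pdcd6*, a calcium-binding protein gene, was at 33.5 ± 1.49 TPM in wt heads and 34.7 ± 1.31 TPM in those of *tulp1*-dKO larvae, a log2 fold change of 0.05 (SE 0.08, limma adjusted p = 0.823). *ccr9b*, a chemokine receptor gene, was low, at 1.19 ± 0.441 and 1.40 ± 0.549 TPM (log2 fold change 0.21, SE 0.38, limma adjusted p = 0.835).

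Most rod and cone genes were lower in the same *tulp1*-dKO heads. Of 13 rod genes tested, 10 were called lower and all 13 had a log2 fold change below 0, with a median of −2.09, and their summed level was 2680 to 3107 TPM in the wt samples and 472 to 833 TPM among the *tulp1*-dKO samples. Of 19 cone genes tested, 10 were called lower, 16 had a log2 fold change below 0 and 3 above, and the median was −1.46, with a summed level of 17119 to 17695 TPM against 3571 to 6570 TPM. The groups of 2 cone genes did not overlap in the higher direction, *gngt2a*, a cone transducin subunit, at 62.9 ± 19.1 and 138 ± 10.7 TPM (limma adjusted p = 0.0566), and *opn1mw2*, a green opsin, at 17.8 ± 4.08 and 33.3 ± 14.6 TPM (limma adjusted p = 0.216). None of these rod and cone genes was at 0 in any sample. In bulk RNA from whole heads, fewer cells of a type and less RNA per cell cannot be told apart. The part of photoreceptor cells in the *lztfl1* difference was not tested.

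The 7 BBSome subunits among the 34 genes leaned lower without passing the test. A further subunit, *bbip1*, was outside the 34 and is described below. It was not called, but its log2 fold change was −0.80 (limma adjusted p = 0.0234). The log2 fold changes of the 7 ran from −0.41 to 0.02 with a median of −0.29, and 6 of the 7 were below 0. An unadjusted p of at most 0.05 was reached by 3 of them, and 3 had groups that did not overlap, in both cases lower in *tulp1*-dKO heads (42.9% of the 7, against 6.97% and 8.86% of all genes tested). Their summed level was 113 to 123 TPM in the wt samples and 110, 105 and 87.4 TPM among the *tulp1*-dKO samples, so the *tulp1*-dKO samples all lay under the lowest wt sample. All 5 non-overlapping lower genes among the 34 belonged to the BBSome group of 11 genes (45.5% of it, against 8.86% of all genes tested). They were the subunits *bbs1*, *bbs2* and *bbs4*, and *bbs12* and *lztfl1*, which are not subunits. In the same group, *mkks* and *bbs10* did not overlap in the higher direction (18.2%, against 14.6% of all genes tested).

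*bbs2* encodes a subunit that in mammals pairs with Bbs7 and Bbs9 in the BBSome core. It was at 22.1, 21.6 and 22.6 TPM in the wt samples against 18.3, 16.4 and 15.2 TPM among the *tulp1*-dKO samples. The wt samples were almost level and every *tulp1*-dKO sample was below them, for a log2 fold change of −0.41 (SE 0.10) that missed the threshold (limma adjusted p = 0.112). *bbs4*, a subunit with tetratricopeptide repeats that in mammalian cells also sits at centriolar satellites, was at 16.1, 13.2 and 12.6 TPM against 12.2, 10.2 and 9.41 TPM. The groups lay side by side with no overlap, wt sample 3 being just above *tulp1*-dKO sample 1 (log2 fold change −0.40, SE 0.15, limma adjusted p = 0.239). *bbs5*, which binds phosphoinositides, had a similar log2 fold change of −0.40 (SE 0.16, limma adjusted p = 0.264), from 21.6 ± 3.68 to 16.2 ± 1.91 TPM, with overlapping groups because wt sample 2 was low. *bbs1*, the subunit through which the small GTPase Arl6 recruits the mammalian BBSome to membranes, was at 6.28 ± 0.137 and 5.52 ± 0.387 TPM, with no overlap and a log2 fold change of −0.18. The remaining subunits overlapped. *bbs9*, a scaffold subunit, was at 7.39 ± 0.970 and 6.06 ± 1.17 TPM. *ttc8*, the most abundant of these 7 subunits, was at 32.2 ± 0.868 and 31.2 ± 5.36 TPM, and *bbs7* at 14.6 ± 2.19 and 14.7 ± 1.64 TPM.

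The BBSome subunits differed between the *tulp1*-dKO samples. Relative to the wt mean, the median log2 deviation of the subunits was −0.08, −0.33 and −0.44 in *tulp1*-dKO samples 1, 2 and 3. It was −1.74, −2.04 and −2.32 for the rod genes and −1.19, −1.28 and −1.98 for the cone genes. Other gene groups varied in order. Hair cell genes, at 0.06, −0.07 and −0.21, and head tissue genes, at 0.27, 0.01 and 0.00, also fell from sample 1 to 3. Skeletal muscle genes, at 0.10, 0.18 and 0.12, and heat shock genes, at 0.27, 0.45 and 0.12, did not. Pancreas and gut genes rose, at −0.44, 1.01 and 1.87. *lztfl1* did not share the falling order, with deviations of −1.92, −1.64 and −1.85. The median over all 11 genes of the BBSome group, −0.29, moved to −0.44 when *tulp1*-dKO sample 1 was left out. The part of photoreceptor cells in the BBSome values was not tested.

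**Figure D3:**
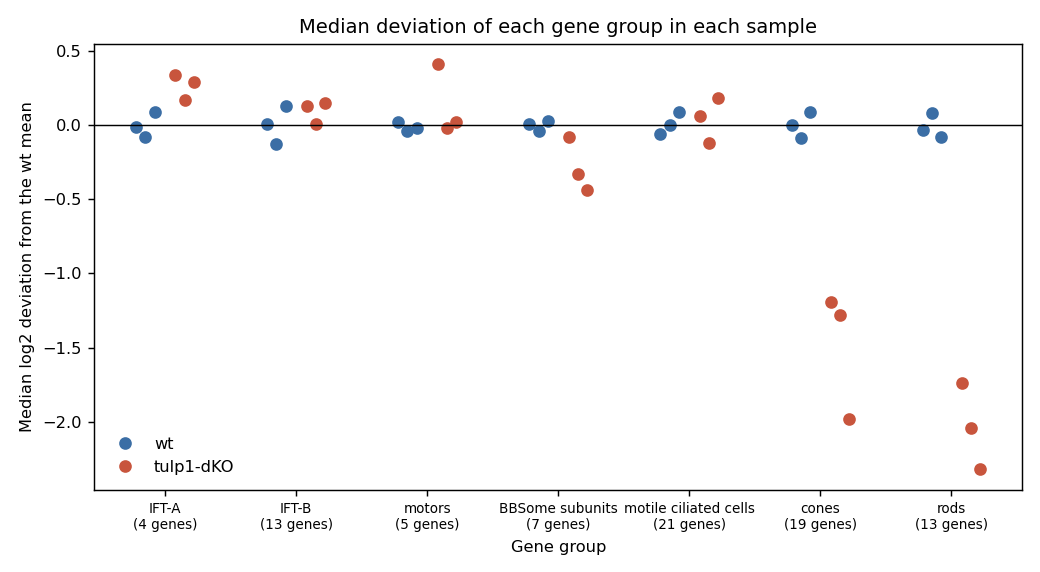
Median log2 deviation from the wt mean in each sample, over the genes of each group (3 wt in blue, 3 *tulp1*-dKO in red, sample 1 to 3 from left to right). IFT-B is shown without the *hspb11* entry, and the motors with *kif17*. The BBSome subunits sit at −0.08, −0.33 and −0.44 in *tulp1*-dKO samples, the IFT-A genes at 0.34, 0.17 and 0.29, and the rod and cone genes below −1.

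The 3 chaperonin-like genes, whose products help assemble the BBSome in mammalian cells, did not share a direction. *mkks* was at 2.41, 2.71 and 3.45 TPM in the wt samples against 4.21, 5.02 and 7.52 TPM among the *tulp1*-dKO samples. Every *tulp1*-dKO sample was above every wt sample, but they were spread widely, and the log2 fold change of 0.92 (SE 0.25) missed the threshold (limma adjusted p = 0.131). *bbs12* was at 3.11, 2.34 and 3.22 TPM against 1.70, 2.14 and 1.89 TPM. Its *tulp1*-dKO samples were all lower, although wt sample 2 came near them (log2 fold change −0.57, SE 0.21, limma adjusted p = 0.232). *bbs10* was at 2.61 ± 0.306 and 3.53 ± 0.499 TPM, with every *tulp1*-dKO sample higher (log2 fold change 0.42, SE 0.18, limma adjusted p = 0.304).

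The other gene past the thresholds was the entry named *hspb11*, and it is not the gene that the name stands for in mammals. Mammalian HSPB11 is IFT25, the IFT-B subunit that pairs with IFT27. The entry here (ENSDARG00000002204) is described in the files as an alpha-crystallin-related heat shock protein, and its NCBI gene number carries the symbol *hspb9l* in RefSeq, on chromosome 21, with *hspb11* as a synonym. The gene that RefSeq calls *hspb11*, on chromosome 5, is listed as *zgc:158640* (ENSDARG00000067777). The *hspb11* entry was at 14.3, 16.4 and 16 TPM in the wt samples against 43.8, 51.8 and 39.5 TPM among the *tulp1*-dKO samples. The groups were far apart, and its mean rose from 15.6 ± 1.1 to 45.0 ± 6.28 TPM, 2.89-fold (log2 fold change 1.52, SE 0.13, limma adjusted p = 0.00254). *zgc:158640* was at 5.94, 5.17 and 6.86 TPM in the wt samples against 5.94, 7.25 and 8.55 TPM among the *tulp1*-dKO samples. Its groups overlapped, with a log2 fold change of 0.26 (SE 0.18, limma adjusted p = 0.515). With *zgc:158640* in place of the *hspb11* entry, an exchange made after the values were seen, 1 of 34 genes was called in either direction.

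Heat shock genes were counted beside the *hspb11* entry. Of 29 tested, 1 was called higher, the *hspb11* entry itself, and 1 was called lower, *hspb15*, a small heat shock protein gene that went from 8.10 ± 1.25 to 3.65 ± 0.616 TPM (log2 fold change −1.13, SE 0.18, limma adjusted p = 0.0323). Without wt sample 1 the adjusted p of *hspb15* was 0.123, and it stayed at or below 0.05 in 6 of 14 alternative settings. The log2 fold change was above 0 in 24 of the 29, with a median of 0.25 beside 0.05 over all genes tested. An unadjusted p of at most 0.05 was reached by 9 higher (31.0%) and 2 lower (6.90%) genes, against 10.1% and 6.97% of all genes tested. Both the 24 and the 9 include the *hspb11* entry. The summed level of the 29 genes, also with that entry, overlapped between the groups. It was 958 to 1273 TPM in the wt samples and 1068 to 1369 TPM among the *tulp1*-dKO samples. The part of a wider heat shock response in the *hspb11* value was not tested.

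**Figure D4:**
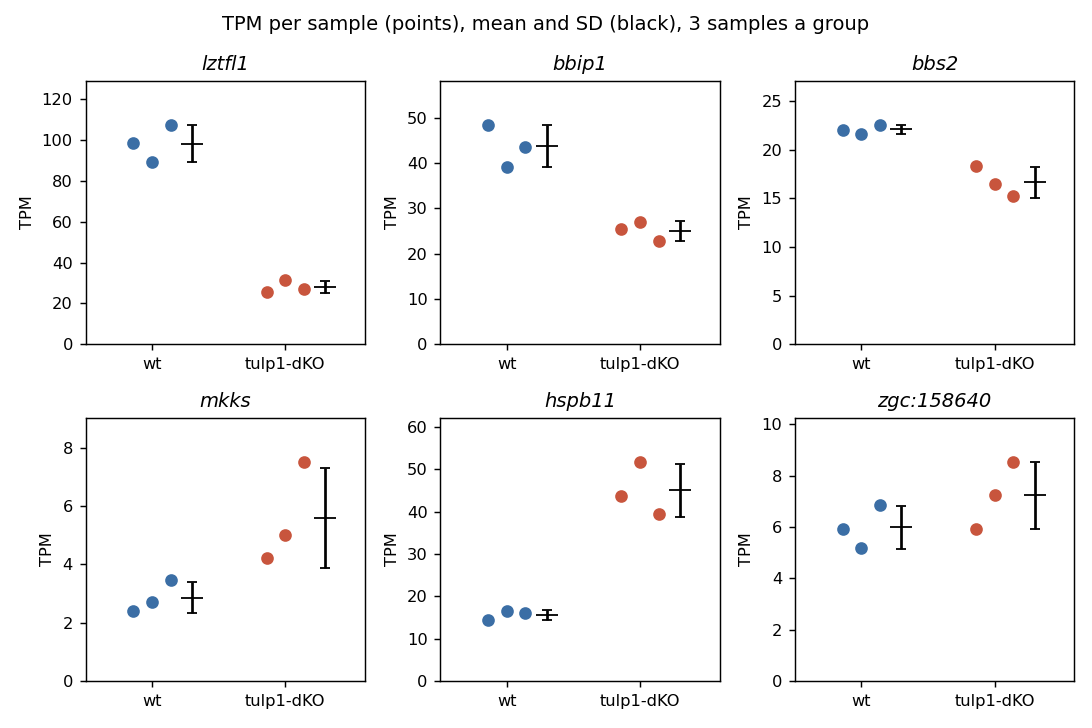
TPM in each of the 6 samples (points, 3 wt in blue and 3 *tulp1*-dKO in red) with the mean and SD in black, for *lztfl1*, *bbip1*, *bbs2*, *mkks*, the *hspb11* entry and *zgc:158640*; every axis starts at 0. The groups do not overlap in the first 5 genes, and in *zgc:158640* they do, from 5.17 to 6.86 TPM against 5.94 to 8.55 TPM.

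Without the *hspb11* entry, the 13 IFT-B genes showed small differences. Their log2 fold changes ran from −0.14 to 0.48 with a median of 0.09, and their summed level was 187, 171 and 197 TPM in the wt samples and 192, 188 and 194 TPM among the *tulp1*-dKO samples. None was called, and *ift81* alone reached an unadjusted p of at most 0.05 or had groups that did not overlap. That was 7.69% of the 13, against 10.1% and 14.6% of all genes tested in the higher direction. *ift81*, which binds tubulin together with Ift74, was the least abundant IFT-B gene, at 4.76, 3.59 and 4.62 TPM against 6.47, 5.6 and 5.99 TPM. All *tulp1*-dKO samples were higher, by a log2 fold change of 0.48 (SE 0.16, limma adjusted p = 0.188). Its partner *ift74* was at 34.4, 28.2 and 30.4 TPM against 33.8, 32.7 and 31.2 TPM. The *tulp1*-dKO samples lay inside the range of the wt samples (log2 fold change 0.07, SE 0.10, limma adjusted p = 0.766).

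The other core IFT-B genes overlapped between the groups. *ift88*, whose loss removes outer segments in zebrafish, was at 13.2 ± 1.66 and 15.7 ± 3.30 TPM, and *ift52*, a central core subunit, at 16.1 ± 0.247 and 14.9 ± 1.43 TPM. *ift46*, which in *Chlamydomonas* is needed to carry outer dynein arms, was at 20.4 ± 2.79 and 19.1 ± 1.25 TPM. The small GTPase genes *ift22* and *ift27* were at 7.31 ± 0.257 and 7.53 ± 1.72 TPM, and at 9.81 ± 1.11 and 10.7 ± 2.53 TPM.

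The peripheral IFT-B genes also overlapped. *ift80*, the one with the smallest p, was at 11.4, 10.7 and 14.4 TPM in the wt samples against 14.8, 13.4 and 13.4 TPM among the *tulp1*-dKO samples. Wt sample 3 lay among the *tulp1*-dKO samples (log2 fold change 0.20, SE 0.14, limma adjusted p = 0.531). *ift172*, whose protein acts at the turnaround of trains at the tip in *Chlamydomonas*, was at 7.83 ± 1.29 and 8.89 ± 0.946 TPM, and *ift57* at 13.1 ± 2.64 and 15.1 ± 1.75 TPM. *ift20*, which in mammalian cells also sits at the Golgi, was at 22.9 ± 1.3 and 21.1 ± 1.18 TPM. *cluap1* was at 19.3 ± 2.10 and 17.5 ± 1.64 TPM. *traf3ip1*, known in zebrafish as the *elipsa* gene, was at 7.68 ± 1.07 and 8.14 ± 0.939 TPM.

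The 4 IFT-A genes had a median log2 fold change of 0.28, which was 0.18 without wt sample 2 and 0.39 without wt sample 3. None was called by limma, and 2 of the 4 were higher at an unadjusted p of at most 0.05, where 10.1% of all genes tested were. Their summed level was 37.3, 35.7 and 39.9 TPM in the wt samples and 46.0, 41.3 and 42.6 TPM among the *tulp1*-dKO samples, and 2 of the 4 genes had groups that did not overlap, all higher (14.6% of all genes tested). *wdr19*, an IFT-A core subunit mutated in human ciliopathies with retinal degeneration, was at 6.49, 6.63 and 7.23 TPM against 9.83, 8.95 and 8.25 TPM. Each *tulp1*-dKO sample was above each wt sample (log2 fold change 0.40, SE 0.12, limma adjusted p = 0.162). *ttc21b*, a peripheral subunit needed for retrograde transport in the mouse, was at 7.61, 6.77 and 7.93 TPM against 10.2, 9.27 and 9.39 TPM. It too was higher in every *tulp1*-dKO sample without passing the threshold (log2 fold change 0.37, SE 0.12, limma adjusted p = 0.175). *ift140*, the most abundant IFT-A gene, was at 13.7, 13.7 and 11.7 TPM against 14, 12.7 and 12.3 TPM. Those groups overlapped, and the difference was smaller than its SE of 0.11 (limma adjusted p = 0.997). *wdr35*, a peripheral subunit, was at 10.4 ± 2.30 and 11.7 ± 1.13 TPM and also overlapped.

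None of the 5 motor genes was called or reached an unadjusted p of at most 0.05. *kif3a* was the steadiest of the 34 genes in wt heads, at 56.5, 57.3 and 55.9 TPM in the wt samples and 57.3, 56.0 and 55.1 TPM among the *tulp1*-dKO samples. Its coefficient of variation in the wt samples was 1.22%, the groups overlapped, and the log2 fold change was −0.01 (SE 0.07, limma adjusted p = 0.956). *kif3b* was at 7.5 ± 0.995 and 8.2 ± 1.51 TPM. *kif17*, a homodimeric kinesin-2 studied in cone outer segments of zebrafish, was at 0.39, 0.52 and 0.27 TPM against 0.64, 0.72 and 0.55 TPM. The groups did not overlap, but the lowest *tulp1*-dKO sample was close to the highest wt sample and the level was near the filter of 0.5 TPM (log2 fold change 0.60, SE 0.47, limma adjusted p = 0.580). *dync2h1*, the heavy chain of the retrograde dynein-2, was at 5.12, 3.79 and 5 TPM against 6.63, 5.10 and 4.55 TPM. Its groups overlapped (log2 fold change 0.22, SE 0.20, limma adjusted p = 0.634). *dync2li1*, the light intermediate chain, was at 4.50 ± 0.866 and 4.74 ± 1.06 TPM.

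Further genes of the same machinery, outside the 34, were read from a list of 46 names, of which 27 were found and 28 entries tested. None was called by limma, 3 were higher and 3 lower at an unadjusted p of at most 0.05, 14 had a log2 fold change above 0 and 14 below, and the median was 0.01. At an adjusted p of at most 0.05 with no minimum fold change, 1 was lower, *bbip1*, and 1 was higher, *arl13a*. *bbip1* encodes the smallest BBSome subunit. It was at 48.4, 39.1 and 43.6 TPM in the wt samples against 25.5, 26.9 and 22.7 TPM among the *tulp1*-dKO samples, clear of each other, for a log2 fold change of −0.80 (SE 0.12, limma adjusted p = 0.0234). That p rose to 0.10 without wt sample 1 and stayed at or below 0.05 in 6 of the 14 alternative settings, with the log2 fold change between −0.88 and −0.72. *arl13a*, a relative of the ciliary small GTPase gene *arl13b*, was at 17.4, 14.1 and 16.4 TPM against 28.2, 27.1 and 27.0 TPM. All *tulp1*-dKO samples were higher, by a log2 fold change of 0.78 (SE 0.11, limma adjusted p = 0.020), and the adjusted p was at or below 0.05 in 8 of the 14 alternative settings and reached 0.0858 without *tulp1*-dKO sample 2.

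Other partners of the 34 genes did not pass the test. The kinesin-2 partner *kif3ca* was at 19.8 ± 1.55 and 24.0 ± 2.97 TPM with no overlap (log2 fold change 0.27, SE 0.12, limma adjusted p = 0.313). Its relative *kif3cb* was at 27.8 ± 1.29 and 25.3 ± 1.05 TPM. The kinesin-associated gene *kifap3a* was at 26.3 ± 4.85 and 25.5 ± 2.49 TPM. *kifap3b* was at 30.2 ± 5.04 and 37.1 ± 1.22 TPM, with overlapping groups (log2 fold change 0.31, SE 0.13, limma adjusted p = 0.279). *arl6*, the GTPase that recruits the BBSome in mammals, was at 26.1 ± 6.20 and 24.9 ± 4.52 TPM. The IFT-B gene *flr*, named *ift70* in RefSeq, was at 11.1 ± 0.677 and 14 ± 1.65 TPM with no overlap (log2 fold change 0.32, SE 0.12, limma adjusted p = 0.257). These names were chosen after their values were seen. The 28 entries do not include *flr*. In the higher direction 4 of them did not overlap (14.3%), and in the lower 4 (14.3%), against 14.6% and 8.86% of all genes tested. Beside *arl13a* and *kif3ca*, the higher ones were *rab8a* and *ccdc28b* (log2 fold change 0.66 and 0.19, limma adjusted p = 0.0893 and 0.391). Beside *bbip1*, the lower ones were *ttc26*, *tctex1d2* and *dynll2b* (−0.26, −0.34 and −0.21, limma adjusted p = 0.376, 0.222 and 0.241).

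Wider groups of ciliary genes were counted in the same way. Of 31 connecting cilium and transition zone genes tested, 2 were called lower, *arl3l2* and *unc119.2*, both linked to the traffic of lipid-modified proteins, and the median log2 fold change was −0.06. At an unadjusted p of at most 0.05, 5 of the 31 were higher (16.1%) and 7 lower (22.6%), against 10.1% and 6.97% of all genes tested. *arl3l2* fell from 34.9 ± 2.22 to 7.74 ± 0.953 TPM (limma adjusted p = 8.15e-04) and *unc119.2* from 7.58 ± 0.67 to 1.07 ± 0.582 TPM (limma adjusted p = 0.0119). Of 21 genes of motile ciliated cells tested, none was called by limma (1 higher and 1 lower at an unadjusted p of at most 0.05), the median was −0.01 and the summed levels of the groups overlapped. The lower one was *tekt2*, a tektin of the axoneme, at 1.83 ± 0.463 and 0.497 ± 0.129 TPM with no overlap (log2 fold change −1.69, SE 0.35, limma adjusted p = 0.0692). Of 13 genes for RFX and other ciliogenic transcription factors, which drive IFT and BBSome genes in many animals, none was called by limma (2 higher and 0 lower at that p) and the median was 0.05.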

How the data were processed

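RNA from dissected heads at 4 dpf was sequenced on an Illumina NovaSeq instrument from 3 wt and 3 *tulp1*-dKO samples. The authors mapped reads to GRCz11 with HISAT2, counted them with RSEM and deposited TPM per gene; tool versions are not given in the sources used here. The samples summed to 945666 to 948860 TPM, and read depth is unknown. The authors tested counts with DESeq2, which TPM does not allow, and their thresholds of adjusted p and fold change were kept.

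Samples were grouped by the genotype in the labels. All 6 entered 1 limma fit (version 3.58.1, R 4.3.3, eBayes with trend) on log2(TPM + 0.1), after removal of genes with a mean under 0.5 TPM. The fit was tested on simulated data. Further steps used Python 3.11.15 with pandas 2.3.3 and numpy 2.4.6, and plots were drawn with matplotlib 3.10.9. Gene identities and chromosomes came from a RefSeq table of GRCz12tu, and no coordinates are given because the builds differ.

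Values of all 6 samples are given for members at an adjusted p of at most 0.05, with the smallest p in their subcomplex, with non-overlapping groups and an unadjusted p of at most 0.05, or with the highest or lowest level in their complex, and for a few genes chosen after their values were seen. Members and lists were chosen with earlier results of these data known. The lists were written from general knowledge. The fit was repeated with 0.5 or 1 added to each TPM, without the filter or with one at 2 TPM, after median ratio scaling or quantile normalization, without the trend, with a replicate block, and without each of the 6 samples.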

Additional observations from a re-analysis of the deposited data

How the results depend on the processing

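The labels do not say whether samples with the same replicate number are paired, and the small correlations across genes cannot settle it. Deviations of same-numbered samples correlated at 0.029, 0.031 and 0.032 across genes, although each sample correlated best with its own number. With a replicate block, 134 genes were called over all genes tested in place of 302, and 2 members as before. Leaving out each sample in turn gave 104 to 240 called genes. The members called stayed at 2 under all 14 alternatives, where *lztfl1* had an adjusted p of 9.86e-04 to 0.0183 and the *hspb11* entry of 0.00245 to 0.0248 (limma). With RefSeq's *hspb11* gene exchanged for the *hspb11* entry, after the data were seen, members called were 1, and members at an adjusted p of at most 0.05 were 1. With all samples, the median log2 fold change of the motors was 0.12 with *kif17* and 0.09 without it. For IFT-B it was 0.09 with or without the *hspb11* entry. With a sample left out, the median was −0.44 to −0.20 for the BBSome group and 0.18 to 0.39 for IFT-A. It was 0.03 to 0.19 for IFT-B with the *hspb11* entry and 0.07 to 0.23 for the motors with *kif17*. Likewise, *dync2h1* ranged from 0.07 to 0.33 and *ift80* from 0.11 to 0.32, with no call. *ift140* changed sign, from −0.08 to 0.04, and *kif3a*, from −0.03 to 0.00, when single samples were left out, and neither is called in any setting. The cause of these shifts was not tested. With TPM and 3 samples a group, counting error cannot be given, and genes such as *kif17* near 0.5 TPM are the least certain.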
